A study of Mus musculus with 10 samples.

Results

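The genes described here are the enzymes that make cholesterol, the proteins that switch those enzymes on and off, and the proteins that take up, move, store and export cholesterol. They were 32 gene symbols taken from a list made by pathway membership, with earlier results of these data known. The deposited tables held 35087 gene symbols, and all 32 were found there. The measurements were RNA levels in granulosa cells, the somatic cells around the oocyte, captured by laser microdissection from ovaries of wild-type (WT) C57B6/J female mice aged 3 weeks and sequenced by GEO-seq, a protocol for amplifying RNA from small captured areas. In the treated group (4 libraries, called NAC 1 to NAC 4) the mice had received N-acetyl-l-cysteine (NAC), a thiol antioxidant, at 150 mg/kg into the peritoneum on 3 successive days. In the control group (6 libraries, saline 1 to saline 6) they had received normal saline on the same schedule. Ovaries were taken on day 4 after the first injection in both groups, and the labels give batch 1 for every library. No label ties a library to an animal, so p-values measure only the spread between captured samples. The comparison asks how granulosa cell transcripts differ after an antioxidant, in a study whose title concerns HIF1 and the loss of follicles.

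Cells build cholesterol from acetyl-CoA through mevalonate, squalene and lanosterol. When membrane sterol is low, SCAP escorts the SREBP transcription factors from the endoplasmic reticulum to the Golgi, where they are cleaved and released to activate the synthesis genes, and INSIG proteins hold SCAP back when sterol is high. The liver X receptors (LXR alpha, encoded by Nr1h3, and LXR beta, encoded by Nr1h2) sense oxysterols and activate the exporters Abca1 and Abcg1. Granulosa cells need cholesterol for steroid synthesis, and inside the follicle they are cut off from blood lipoproteins other than those small enough to pass the follicle wall.

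Many of the cholesterol genes, though not all, share a short sequence in their promoters, and a few promoters are shown as examples. Those of Mvk, Tm7sf2, Sc5d and Nr1h3 belong to genes with values per library further on. That of Hmgcs1 is the only one with the sterol response element. Sterol response elements bind SREBP, and NF-Y is a factor that commonly binds beside it. RefSeq promoters on GRCm38.p6, each from 250 bases before to 50 bases after an annotated start, were found for 25 of the 32 genes (34 promoters, as some genes have several starts). Both strands were searched for the NF-Y box CCAAT, the GC box GGGCGG, the sterol response element TCACNCCAC and the LXR-type repeat (by name), none of which contains another. The printed stretches are the 150 bases up to the start of Hmgcs1 (chr13:119690201-119690350, plus strand), Mvk (chr5:114444119-114444268, plus strand), Tm7sf2 (chr19:6067851-6068000, minus strand), Sc5d (chr9:42264301-42264450, minus strand) and the upstream one of the RefSeq starts of Nr1h3 (chr2:91195117-91195266, minus strand). Capitals mark the sterol response element and the NF-Y box, which reads ATTGG where it lies on the other strand.
Hmgcs1: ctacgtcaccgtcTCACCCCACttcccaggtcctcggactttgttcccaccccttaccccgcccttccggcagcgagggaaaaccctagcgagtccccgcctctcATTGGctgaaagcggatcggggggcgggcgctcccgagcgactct
Mvk: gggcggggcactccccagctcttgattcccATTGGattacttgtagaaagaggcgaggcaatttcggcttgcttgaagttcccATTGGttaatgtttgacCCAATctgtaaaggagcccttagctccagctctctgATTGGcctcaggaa
Tm7sf2: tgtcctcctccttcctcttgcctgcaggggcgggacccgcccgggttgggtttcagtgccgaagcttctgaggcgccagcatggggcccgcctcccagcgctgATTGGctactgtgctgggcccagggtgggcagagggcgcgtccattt
Sc5d: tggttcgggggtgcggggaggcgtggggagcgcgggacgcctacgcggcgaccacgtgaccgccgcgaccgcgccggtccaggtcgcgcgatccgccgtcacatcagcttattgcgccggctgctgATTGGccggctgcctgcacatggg
Nr1h3: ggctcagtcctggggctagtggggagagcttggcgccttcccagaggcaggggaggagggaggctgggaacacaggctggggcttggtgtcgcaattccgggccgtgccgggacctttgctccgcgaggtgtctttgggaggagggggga

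The NF-Y box was present in 21 of the 34 promoters (61.8%), against 37.4% of 32851 promoters in the RefSeq table and 38% of the 10882 promoters of genes tested here. By role the count was per gene, and a box in any promoter of a gene was enough. These counts are therefore not on the scale of the shares of promoters just given. The box was found in 9 of 9 genes of the squalene-to-cholesterol steps and 5 of 6 of the mevalonate steps. It was in 4 of 5 of the SREBP control genes and 2 of 2 of the uptake and storage genes, but in 0 of 3 of the LXR and efflux genes. Mvk, shown above, has 4 copies within 150 bases. The GC box was in 26 of 34 promoters (76.5%), against 35.7% of all promoters and 64.4% of those of tested genes. The sterol response element in this exact spelling was in the promoter of Hmgcs1 alone (2.94% of the 34, against 1.24% and 1.18%). The LXR-type repeat was in none of the 34, and in 0.0152% of all promoters. These are matches of letters within a fixed window and do not show binding.

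Read depth and the share of genes detected differed between the libraries. The NAC libraries held 1295412, 509945, 116461 and 1667181 estimated reads (NAC 1 to NAC 4), while in saline the range was 1340324 to 2488408. The shallow libraries NAC 2 and NAC 3 differed from the rest in having reads for 84.8% and 85.1% of tested genes, against 97.7% to 99.5%. NAC 2 thus had no larger share than NAC 3, although it held more reads. The 32 cholesterol genes together had 195 reads in NAC 3 and 536 in NAC 2, against 2205 to 4769 in the other 8 libraries. Levels are given as CPM (counts per 1000000 reads of the TMM-adjusted library size), in which 1 read is worth 8.05 CPM in NAC 3, 2.05 in NAC 2 and 0.445 to 0.721 elsewhere. Of the 31 genes that passed the filter on low counts, 6 had no read in NAC 2 and 4 had none in NAC 3. In material of this kind fewer cells of a type and less RNA per cell cannot be told apart.

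The captured material was checked by markers. The summed level of 10 granulosa markers was 8608 to 21925 CPM in NAC and 14216 to 41232 in saline, and 8 of the 10 had a negative log2 fold of NAC over saline. Inha, the inhibin alpha subunit made by granulosa cells, stood at 2586 to 8216 CPM in NAC, at 7606 and 10271 in saline 1 and saline 2, and at 28034 to 32857 in saline 3 to saline 6. Oocyte markers (11) summed to 177, 240, 902 and 1307 CPM in NAC 1 to NAC 4. In saline they summed to 640 in saline 2 and 1701 in saline 4, and to 1.33 to 26.1 in the other saline libraries. Endothelial markers (5) summed to 48.3 to 162 in NAC and 8.11 to 38.7 in saline, stroma (6) to 56.4 to 1745 and 83.1 to 921, smooth muscle (4) to 0 to 563 and 5.41 to 302, and theca (5) to 0 to 125 and 18.1 to 196. The tested markers of stroma, smooth muscle and endothelium all had positive folds. Of the 9 tested oocyte markers, 7 had positive folds and 2 negative ones. The part of these differences in the cholesterol gene values was not tested.

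Across the whole set, the cholesterol genes lay mostly on the lower side in NAC, and none of the 31 tested genes was called. The call rule was an adjusted p under 0.05 in edgeR's quasi-likelihood test, adjusted over all 10945 tested genes. That rule called 8 of the 10945 genes (0.0731%), 2 of them higher and 6 lower in NAC. DESeq2 called 428 genes, of which 1, Nr1h3, was among the 31. At an unadjusted p under 0.05, 4 of the 31 were lower (Nr1h3, Scap, Tm7sf2 and Mvk) and 0 were higher, against 8.34% of all tested genes lower and 7.82% higher. The median log2 fold of the 31 was -0.38, with 21 negative and 10 positive, while the median of all tested genes was 0.02 and 48.97% were negative. A single gene, Nr1h3, had every NAC library below every saline library, a separation found in 3.43% of tested genes, and 0 had every NAC library above every saline library (1.96% of tested genes).

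**Figure D1:**
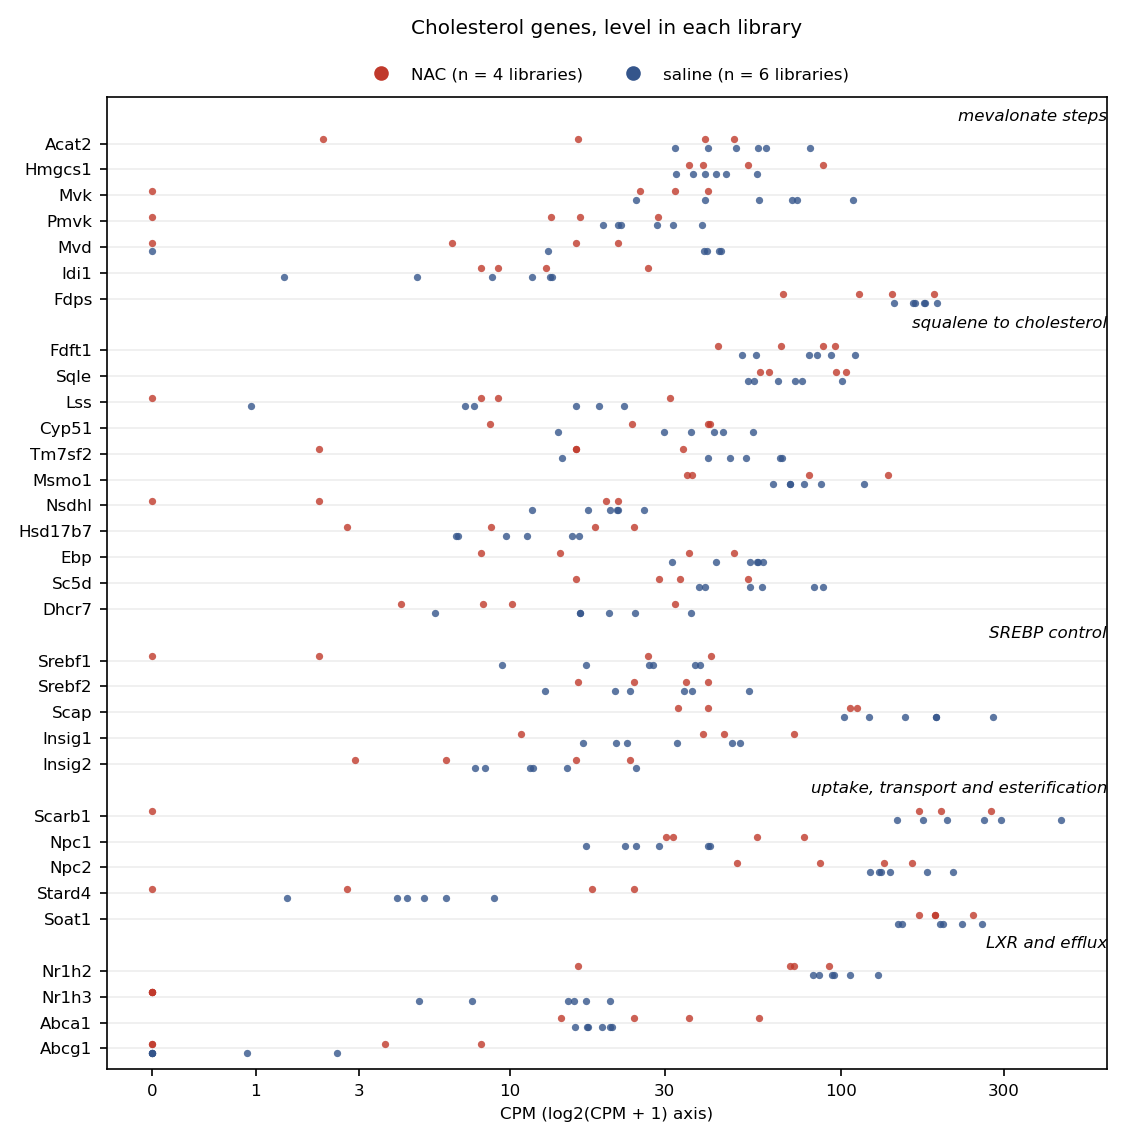
Level of each of the 32 cholesterol genes in each library, in CPM on a log2(CPM + 1) axis; red points are the 4 NAC libraries and blue points the 6 saline libraries, grouped by role. Nr1h3 has all 4 NAC points at 0 and all saline points at 5.0 CPM or more, and in every other row the groups overlap.

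By role, the 7 genes of the mevalonate steps had a median log2 fold of -0.72 (5 negative), the 11 of the squalene-to-cholesterol steps -0.52 (8 negative), and the 5 SREBP control genes -0.14 (4 negative). The 5 uptake, transport and storage genes had a median of 0.02 (2 negative), and the 3 tested LXR and efflux genes -0.64 (2 negative). For the 18 synthesis enzymes together the median was -0.55, with 13 negative. Leaving out NAC 4 gave medians of -0.14 for the squalene-to-cholesterol steps and -1.004 for SREBP control. Read library by library, the same values overlapped between the groups. The median deviation of the 18 enzymes from their mean log2 CPM over the libraries was -0.02, -0.48, 0.09 and -0.33 in NAC 1 to NAC 4. In saline 1 to saline 6 it was 0.18, -0.16, 0.47, 0.30, 0.72 and 0.37. Saline 1 and saline 2, the saline libraries with the lowest Inha, thus lay lowest in the saline group, and saline 2 lay below NAC 1 and NAC 3.

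**Figure D2:**
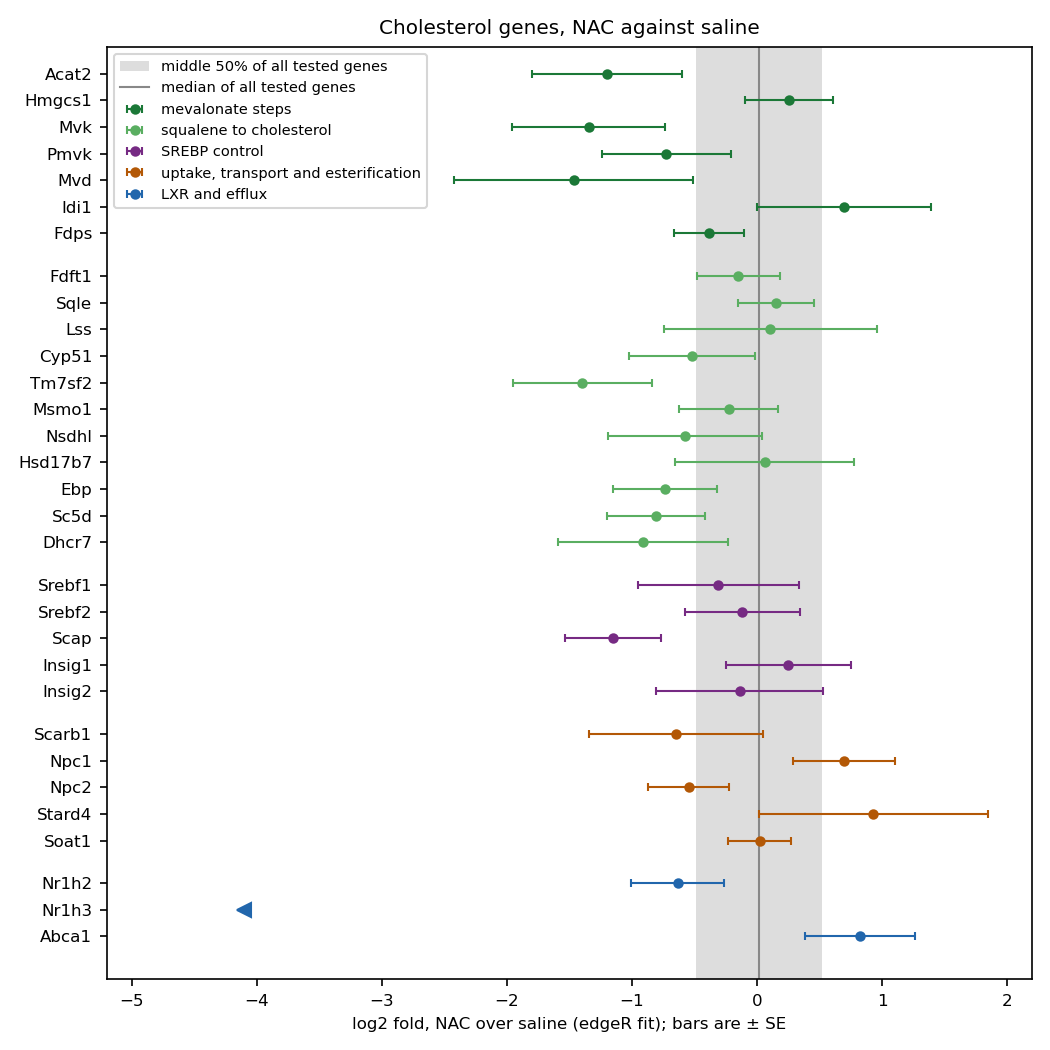
Fitted log2 fold of NAC over saline for the 31 tested cholesterol genes, with bars of ± 1 SE from the edgeR fit; colours mark the role, the grey line is the median of all tested genes (0.02) and the grey band their middle 50% (-0.49 to 0.52). Most of the synthesis enzymes lie left of the grey line, and the triangle for Nr1h3 is the bound set by 3 reads over the NAC group.

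Nr1h3 had the widest separation of the groups among the 31 genes. This gene of LXR alpha (chromosome 2, 91184061 to 91202834) was at 0 CPM in NAC 1, 2, 3 and 4. Its levels in saline 1 to 6 were 15.2, 7.53, 4.96, 20.5, 15.9 and 17.3 CPM, so it was read in every saline library and in no NAC library. The saline group held 161 reads of it, and at that level 18.5, 6.53, 1.66 and 24.9 reads would have been found in NAC 1 to NAC 4, or 51.6 in all. The floor was 3 reads over the NAC group (0.777 CPM). By counting error alone, the NAC level was at least 17.2-fold below the pooled saline level of 13.4 CPM. Zeros also occurred for genes read well elsewhere. Scarb1 had 0 reads in NAC 2 against 211 to 860 in the saline libraries, and Mvd had 0 in saline 2. The bound does not cover such zeros. The edgeR adjusted p of Nr1h3 was 0.0606, above the threshold, and 0.0655 without both NAC 2 and NAC 3. With single libraries left out it ran from 0.0431 (without NAC 2) to 0.162 (without saline 5), and passed only without NAC 2. In all, 4 of the 10945 tested genes (0.0365%) had no read in any NAC library, and Nr1h3 was one of them. Nr1h3 entered the test through its saline reads alone, so its place among the tested genes is not independent of the difference.

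The gene of LXR beta was read in all 10 libraries. Nr1h2 (chromosome 7, 44549616 to 44553951) stood at 92.3, 16.4, 72.5 and 70.9 CPM in NAC and at 85.9, 82.4, 128, 95.2, 106 and 93.8 in saline. NAC 2 was far below the rest and NAC 1 lay inside the saline range. Nr1h2 had a fitted log2 fold of -0.64 (SE 0.37, edgeR adjusted p = 0.406), and -0.28 without NAC 2 and NAC 3. It was -0.04 in the fit with offsets for GC content and length, and -0.24 in limma on log2(TPM + 1). On the deposited TPM scale (per length) the mean was higher in NAC, at 78.9 ± 64.6 (SD, n = 4) against 63.2 ± 8.32 (SD, n = 6). There NAC 1 and NAC 3 (82.8 and 164 TPM) lay above the saline maximum of 75.8. The pseudogene copy Nr1h2-ps had 0 reads in both groups.

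The exporters that LXR activates did not have lower means in NAC. Abca1 (chromosome 4, 53030787 to 53159895), which loads cholesterol onto lipid-poor apolipoproteins, stood at 35.3, 57.3, 24.2 and 14.5 CPM in NAC and at 20.8, 16.0, 19.4, 17.6, 17.4 and 20.4 in saline. The saline values were tightly grouped, with a coefficient of variation of 10.2%, and the NAC values lay on both sides of them. Its fitted log2 fold was 0.82 (SE 0.44, edgeR adjusted p = 0.365), and 0.40 without NAC 2 and NAC 3. Abcg1 (chromosome 17, 31057675 to 31117988), which passes cholesterol to mature lipoproteins, was too rare to test: it had 1 read in NAC 3, 7 in NAC 4, 5 in saline 4, 2 in saline 6 and none in the other libraries.

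**Figure D3:**
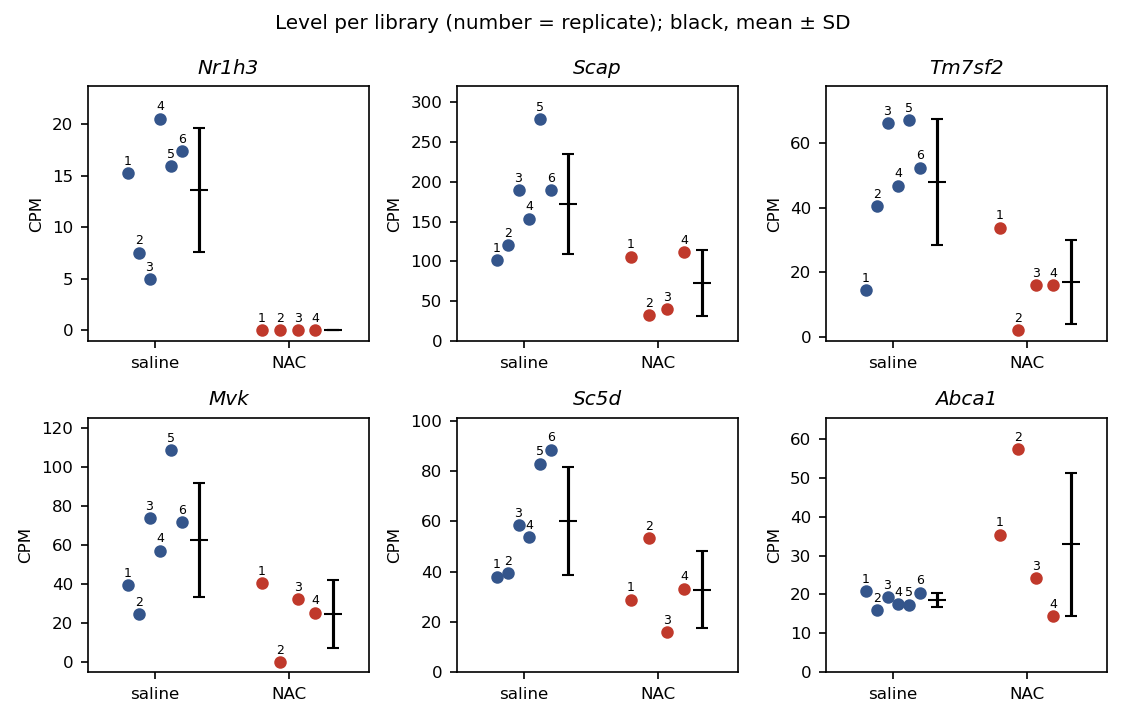
CPM of Nr1h3, Scap, Tm7sf2, Mvk, Sc5d and Abca1 in each library, each panel with its own linear axis; numbers are replicate numbers and black bars are mean ± SD (6 saline, 4 NAC libraries). Nr1h3 is at 0 in all NAC libraries, the next 4 genes have lower NAC means with overlapping ranges, and Abca1 has a higher and more scattered NAC mean.

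Among the genes that control SREBP, the escort protein gene had the smallest p. Scap (chromosome 9, 110333288 to 110384950) was at 106, 32.8, 40.3 and 111 CPM in NAC libraries, a mean of 72.6 ± 41.8 (SD, n = 4). In saline it had 102, 121, 189, 154, 279 and 189 CPM, a mean of 172 ± 63.1 (SD, n = 6). The groups overlapped through saline 1, which was below NAC 1 and NAC 4. The log2 fold was -1.15 (SE 0.38, edgeR adjusted p = 0.172), and -0.67 without NAC 2 and NAC 3. The SREBP genes themselves had small folds with wide errors: -0.12 (SE 0.46) for Srebf2, whose product mainly drives cholesterol synthesis, and -0.31 (SE 0.64) for Srebf1, whose products drive fatty acid synthesis. For Srebf1 it was 0.38 without NAC 2 and NAC 3, -1.004 without NAC 4, and -1.21 in the limma fit of log2(TPM + 1), where Scap had -1.24. Scap and the SREBP genes were not tested against each other. Insig1 and Insig2, the retention proteins, had log2 folds of 0.25 (SE 0.50) and -0.14 (SE 0.67), and -0.17 and 0.04 without NAC 2 and NAC 3. Without NAC 4, Insig2 had -1.05.

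Of the 7 genes of the mevalonate steps, 5 had negative folds and 2 positive ones. Mvk (chromosome 5, 114444269 to 114460591), mevalonate kinase, stood at 40.4, 0, 32.2 and 25.2 CPM in NAC and at 39.5, 24.5, 73.9, 57.1, 109 and 71.6 in saline. All NAC values lay below those of saline 3 to saline 6, and saline 1 and saline 2 lay among them. Mvk had a fitted log2 fold of -1.35 (SE 0.61, edgeR adjusted p = 0.287), and -0.95 without NAC 2 and NAC 3. Acat2 (chromosome 17, 12942890 to 12960747), the cytosolic thiolase of the opening step, stood at 39.7, 16.4, 48.3 and 2.15 CPM in NAC and at 60.2, 49.0, 81.1, 32.2, 56.9 and 40.5 in saline. Here NAC 4, a deep library, was the lowest, and NAC 1 and NAC 3 lay inside the saline range. Its fitted log2 fold was -1.20 (SE 0.60, edgeR adjusted p = 0.336), and -1.90 without NAC 1.

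Of the remaining mevalonate genes, Mvd, the decarboxylase that makes isopentenyl diphosphate, had a log2 fold of -1.47 with a large error (SE 0.95), as it was read at 0 in NAC 2 and also at 0 in saline 2. Without NAC 1 it was -2.42. Pmvk, phosphomevalonate kinase, had -0.72 (SE 0.52), and Fdps, farnesyl diphosphate synthase, -0.38 (SE 0.28). The positive folds were those of Hmgcs1, HMG-CoA synthase, at 0.26 (SE 0.35), and Idi1, the isomerase of isopentenyl diphosphate, at 0.70 (SE 0.69). Hmgcs1 was at 35.3 to 88.6 CPM in NAC and 32.5 to 56.6 in saline, with the highest NAC value in the shallow NAC 3. None of these 5 passed edgeR's test, with adjusted p of 0.461, 0.503, 0.517, 0.741 and 0.636 in the order named.

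The later steps of synthesis were also mostly on the lower side. Tm7sf2 (chromosome 19, 6062821 to 6068373), a sterol reductase acting after lanosterol, stood at 33.9, 2.05, 16.1 and 16.1 CPM in NAC and at 14.5, 40.5, 66.3, 46.9, 67.1 and 52.5 in saline. The groups overlapped through saline 1, which was below NAC 1, NAC 3 and NAC 4. The log2 fold was -1.40 (SE 0.56, edgeR adjusted p = 0.237), -0.96 without NAC 2 and NAC 3, and -2.08 without NAC 1. In the limma fit of log2(TPM + 1) it was -0.98. On that scale NAC 1 and NAC 3 (47.0 and 49.1 TPM) lay inside the saline range of 12.1 to 50.7. Tm7sf2 overlaps Vps51 on the same strand, and reads shared by the overlap cannot be placed with certainty.

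Sc5d (chromosome 9, 42251595 to 42264256), the sterol desaturase near the end of the route, stood at 28.9, 53.2, 16.1 and 33.3 CPM in NAC and at 38.1, 39.6, 58.6, 53.7, 83 and 88.5 in saline. NAC 2 was the highest NAC library here and lay inside the saline range. Sc5d had a fitted log2 fold of -0.81 (SE 0.39, edgeR adjusted p = 0.318), and -0.96 without NAC 2 and NAC 3. Ebp (chromosome X, 8185329 to 8193512), the sterol isomerase that acts just before Sc5d, stood at 35.3, 14.3, 8.05 and 48.3 CPM in NAC and at 54.0, 31.6, 59.0, 56.6, 56.9 and 42.7 in saline. NAC 1 and NAC 4 lay inside the saline range, and NAC 2 and NAC 3 below it. Ebp had a fitted log2 fold of -0.73 (SE 0.41, edgeR adjusted p = 0.391), and -0.26 without NAC 2 and NAC 3.

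The other 8 genes of these steps had log2 folds from -0.91 to 0.15. Dhcr7, the reductase of the final step, had -0.91 (SE 0.68), Nsdhl, a dehydrogenase in the removal of methyl groups, -0.58 (SE 0.61), and Cyp51, lanosterol demethylase, -0.52 (SE 0.50). Without NAC 2 and NAC 3, the fold of Nsdhl was 0.06, and those of Dhcr7 and Cyp51 were -1.49 and -1.22. In the limma fit of log2(TPM + 1), Dhcr7 had -0.03. Its TPM mean was higher in NAC (17.8 against 10.2 in saline), with NAC 3 at 54.2. Msmo1, the sterol methyl oxidase, had -0.23 (SE 0.39) over all libraries and -1.19 without NAC 2 and NAC 3 (edgeR adjusted p = 0.1), since it was at 137 and 80.5 CPM in NAC 2 and NAC 3 and at 36.1 and 34.9 in NAC 1 and NAC 4. Fdft1, squalene synthase, had -0.15 (SE 0.33), Sqle, squalene epoxidase, 0.15 (SE 0.31), Lss, lanosterol synthase, 0.11 (SE 0.85), and Hsd17b7, a sterol ketone reductase, 0.06 (SE 0.72). Leaving out 1 library gave -1.07 for Lss (without NAC 1) and -0.91 for Msmo1 (without NAC 2). Their edgeR adjusted p ranged from 0.524 to 0.978 in the fit of all libraries.

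Uptake, transport and storage showed no common direction. Npc1 (chromosome 18, 12189692 to 12236400), which moves cholesterol out of lysosomes, stood at 30.3, 77.8, 56.4 and 31.7 CPM in NAC and at 17.3, 24.5, 28.8, 40.5, 41.0 and 22.7 in saline. The values above the saline range were those of NAC 2 and NAC 3. The log2 fold was 0.70 (SE 0.41, edgeR adjusted p = 0.41), and 0.09 without them. Its partner Npc2, the soluble carrier in the lysosome, pointed the other way at -0.55 (SE 0.33), with 86.6, 49.1, 161 and 134 CPM in NAC against 122 to 213 in saline.

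Scarb1, the receptor that takes cholesteryl ester from high-density lipoprotein, was read at 274, 0, 169 and 197 CPM in NAC against 146 to 441 in saline. The 3 NAC libraries with reads lay inside the saline range, and the log2 fold of -0.65 (SE 0.70) was -0.12 without NAC 2 and NAC 3. Soat1, which esterifies cholesterol for storage, was the most even gene of the set between groups: 169 to 243 CPM in NAC and 147 to 259 in saline, a log2 fold of 0.02 (SE 0.25). Stard4, a sterol carrier of the cytosol, had 0.93 (SE 0.92) from 33 reads in NAC and 62 in saline, and 0.11 without NAC 1. Their edgeR adjusted p, with that of Npc2, ranged from 0.417 to 0.978.

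On a scale that allows levels of different genes to be compared (deposited TPM, per length), the saline granulosa cells had most RNA of Fdps (164 ± 24.0 TPM, SD, n = 6) and Scarb1 (124 ± 29.3), followed by Soat1 (77.7 ± 30.2) and Nr1h2 (63.2 ± 8.32). The least were Idi1 (3.18 ± 1.84), Abca1 (2.48 ± 0.879) and Abcg1 (0.152 ± 0.270). Nr1h3 (9.20 ± 3.78 TPM) ranked 25 of 32. All neighbours in this order overlapped in their ranges over the 6 saline libraries except Abca1 and Abcg1. The genes also differed in how steady they were: the coefficient of variation over saline CPM was 9.55% for Fdps and 10.2% for Abca1, but 67.7% for Lss and 62.3% for Mvd. The median was 36.6% for the 31 tested genes and 33.2% for all tested genes.

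The fold of a gene moved with the GC content of its transcript, in the cholesterol genes as in all others. With all tested genes divided by GC content into 4 equal classes, the median log2 fold was 0.44 in the lowest class, then 0.15 and -0.18, and -0.41 in the highest. The cholesterol genes in the same classes had medians of 0.16 (6 genes), -0.02 (10), -0.73 (7) and -0.94 (8), each below that of all genes in the class. Counted one by one, 22 of the 31 lay below the median of their class, with a median difference of -0.36. By role these were 6 of 7 for the mevalonate steps and 9 of 11 for the squalene-to-cholesterol steps. They were 3 of 5 for uptake, transport and storage and 2 of 3 for LXR and efflux. For SREBP control they were 2 of 5, with a median difference of 0.10. Scap, Mvk, Mvd and Nr1h3 were in the highest class, and Sc5d was in the lowest. In a fit with offsets for GC content and length, the median of the 31 was -0.37, 0 were called, and Scap had a log2 fold of -0.75 and Mvk -0.93. The median of the mevalonate steps was -0.20 there, and that of the squalene-to-cholesterol steps -0.51.

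**Figure D4:**
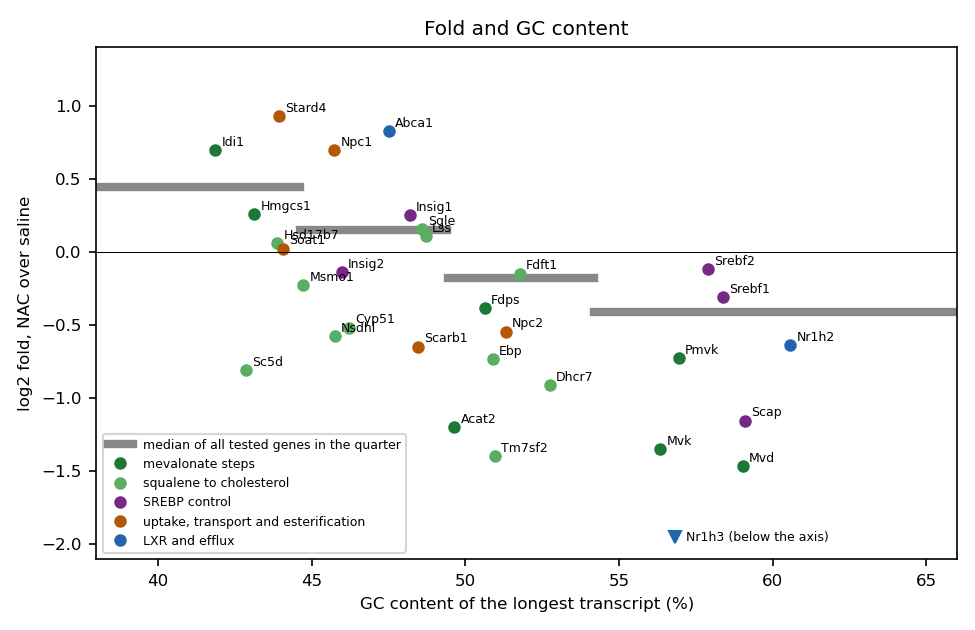
Log2 fold of NAC over saline (edgeR fit) against the GC content of the longest transcript in percent, for the 31 tested cholesterol genes coloured by role; grey bars are the medians of all tested genes in 4 GC classes (0.44, 0.15, -0.18 and -0.41 from left to right). In each class most points lie below the grey bar; Nr1h3 is drawn at the lower edge because its fold lies beyond the axis.

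Other genes of the pathway were described from 6 further lists, with 55 tested genes in all. None was called by edgeR, DESeq2 or limma on log2(TPM + 1), and at an unadjusted p under 0.05 in edgeR 6 were lower and 0 higher. The median log2 fold was -0.06, and 24 were positive and 31 negative. The fatty acid genes that SREBP also activates had 5 of 8 positive and a median of 0.43, opposite in sign to the cholesterol enzymes, with Me1 (malic enzyme) at 0.71 and Acss2 (acetyl-CoA synthetase) at 0.99. Their edgeR adjusted p were 0.386 and 0.443, and the difference between the lists was not tested. Other isoprenoid and sterol enzymes had 5 of 8 negative and a median of -0.40. Among them, Por, the reductase that passes electrons to Cyp51 and Sqle, averaged 16.3 ± 8.71 CPM over the NAC and 62.5 ± 36.1 over the saline libraries (± SD), for a fitted value of -1.84 (SE 0.61, adjusted p = 0.171 by edgeR), while Erg28, a scaffold of sterol enzymes, had 0.55.

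Genes that cleave SREBP or degrade sterol-regulated proteins had a median of 0.03 (6 positive, 4 negative of 10). The proteases of that list pointed opposite ways, at -0.76 for Mbtps1 and 0.77 for Mbtps2 (edgeR adjusted p = 0.295 and 0.52). Other uptake and transport genes had a median of -0.37 (8 of 14 negative), with the lipoprotein receptor Lrp8 at -1.56 (edgeR adjusted p = 0.191). Partners and targets of LXR had a median of 0.16 (4 of 8 negative), with Rxra, the gene of the receptor that pairs with LXR, at -1.54 and Lpcat3, an LXR-responsive acyltransferase, at -0.57 (edgeR adjusted p = 0.251 and 0.377). Genes that use cholesterol for steroid synthesis were all negative (7 of 7, against 48.97% of all tested genes), with a median of -0.29. Their folds ran from -1.21 to -0.07 (SE 0.50 and 0.31). Fdxr, which supplies electrons to the mitochondrial side-chain cleavage enzyme, had -1.21 and the mitochondrial membrane protein gene Tspo -0.61 (edgeR adjusted p = 0.252 and 0.531). Fdxr was at 120, 8.19, 24.2 and 114 CPM in NAC 1 to NAC 4 against 89.3 to 241 in saline. Tspo was at 68.5, 20.5, 0 and 84.9 against 64.9 to 89.2.

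Macrophages express Nr1h3, so their markers were set beside it. None of the 8 macrophage markers passed the filter on low counts. Together they had 80 reads in NAC and 124 in saline, and their summed level was 19.5, 96.2, 0 and 3.22 CPM in NAC 1 to NAC 4 and 0.901 to 23.6 in saline. By marker, the reads in NAC and saline were 9 and 2 for Adgre1, 3 and 24 for Csf1r, 9 and 12 for Cd68, and 8 and 10 for C1qa. They were 16 and 36 for C1qb, 16 and 0 for C1qc, 5 and 11 for Ptprc, and 14 and 29 for Lyz2. The part of macrophage RNA in the Nr1h3 values was not tested. Several other cholesterol genes overlap a neighbour on the opposite strand (Mvd and Gm20388, Fdft1 and Ctsb, Cyp51 and Akap9, Srebf1 and Rai1). The strand setting of the counting is not given in the sources used here, so reads of such pairs may not be separable.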

How the data were processed

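Polyadenylated RNA of 10 laser-captured granulosa cell samples was amplified and sequenced by GEO-seq. Per the submitters' processing notes, the authors used Salmon with GRCm38; for the versions, the annotation and the strand setting the sources used here have no entry. The authors deposited, per the file headers, 1 table per library with estimated counts (reads assigned to a gene, not always whole), TPM and transcript lengths. Rows without a gene symbol (1548, taking 0.496% to 0.638% of reads) were left out.

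Estimated counts were rounded. In R 4.3.3, edgeR 4.0.16 was run with its quasi-likelihood test (robust estimation, TMM factors, default low-count filter), with all 10 libraries in the fit and Benjamini-Hochberg adjustment over the 10945 genes that passed, and the script was tested on simulated data. Log2 folds are NAC over saline. Deposited TPM were used for comparing genes and, as log2(TPM + 1) and log2(TPM + 0.1), in limma 3.58.1. Other alternatives were RLE factors, DESeq2 1.42.0, no filter, the replicate number as a block, GC and length offsets, NAC 2 with NAC 3 left out, saline 2 with saline 4 left out, and each library left out. A floor reflects counting error alone, as reads copied by amplification carry no molecular identifier. GENCODE gave positions, GC content and lengths on GRCm38, and RefSeq the promoters.

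The 32 genes and the other lists were chosen with earlier results of these data known. All 32 genes are named, with values per library for the 10 tested genes of smallest unadjusted p, and from each other list the 2 genes of smallest unadjusted p; 1 of these is not reported here.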

Additional observations from a re-analysis of the deposited data

How the results depend on the processing

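None of the 31 tested cholesterol genes was called with RLE factors, with the replicate block, with GC and length offsets, or without 2 libraries of a group. One, Nr1h3, was called with DESeq2, without the filter, with log2(TPM + 1), with log2(TPM + 0.1) and without NAC 2, so leaving out libraries gave 0 to 1. Its adjusted p over all alternatives ranged from 0.00146 to 0.593. The median log2 fold of the 31 was negative under all 19 alternatives. The number of genes called over the whole table was 8, and it was 428 with DESeq2, 226 without the filter, 17 with GC and length offsets, 2 without NAC 2 and NAC 3, 77 without saline 2 and saline 4, and 1 to 56 with single libraries left out (56 without NAC 1, 38 without NAC 2). Same-numbered NAC and saline libraries did not deviate together (correlations of -0.01, 0.01, 0.01 and 0.20), so the numbers were not taken as pairs; with the replicate block 1 gene was called, no cholesterol gene was, and Nr1h3 had an adjusted p of 0.593 (edgeR). The median of the mevalonate steps was -1.52 with log2(TPM + 0.1) and -0.20 with the offsets, and that of the squalene-to-cholesterol steps -0.96 without NAC 2 and NAC 3.

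Of 589 values of single genes under alternatives, 51 changed sign, and 18 of the 31 genes had no such change. Soat1 was -0.0097 without the filter, -0.15 with both TPM scales, -0.0461 with the block, -0.44 with the offsets and -0.0066 without saline 2 and saline 4. In the order log2(TPM + 1), log2(TPM + 0.1), block and offsets, Lss was -0.64, -1.27, -0.16 and -0.18, and Hsd17b7 -0.10, -0.21, -0.041 and -0.44. On the TPM scales Insig2 was 0.55 and 0.50, and Stard4 -0.0304 and -0.64. With the offsets, Hmgcs1 was -0.0682, Fdft1 0.0858 and Srebf2 0.25. Without NAC 2 and NAC 3, Nsdhl was 0.0607, Hsd17b7 -0.99, Srebf1 0.38, Insig1 -0.17 and Insig2 0.042. Without saline 2 and saline 4, Lss was -0.0848, Srebf2 0.0105 and Insig2 0.28. With single libraries left out, the range was -0.022 to 0.42 for Hmgcs1, -0.36 to 0.0605 for Fdft1, -0.0428 to 0.29 for Sqle, -1.07 to 0.52 for Lss, -0.91 to 0.0404 for Msmo1, -0.36 to 0.50 for Hsd17b7, -1.004 to 0.0876 for Srebf1, -0.28 to 0.12 for Srebf2, -0.0647 to 0.63 for Insig1, -1.05 to 0.26 for Insig2 and -0.10 to 0.12 for Soat1. The cause of these changes was not tested. The median of all genes moved from 0.02 to -0.14 with log2(TPM + 0.1) and to -0.09 with the block. At 195 reads for the 32 genes together in NAC 3 and 536 in NAC 2, differences in single genes were not detectable in those libraries unless large.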
